A study of Mus musculus with 6 samples.

Results

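A set of 10 microRNA (miRNA) wells typical of white blood cells were read in the lungs of newborn mice after hyperoxia or in room air. Chosen by miRNA name, irrespective of species prefix, they were the wells for miR-142, miR-223, miR-150, miR-342, miR-511 and the miR-181 family, with minor-strand assays (names ending in # or *) left out. This gave 10 of the 768 wells, of which 750 hold miRNA assays: mmu-miR-142-3p, mmu-miR-142-5p, mmu-miR-223, mmu-miR-150, mmu-miR-342-3p, mmu-miR-342-5p, mmu-miR-511, mmu-miR-181a and mmu-miR-181c on the first assay card (written below without the prefix), and a second miR-223 assay, hsa-miR-223, on the second card. No well matched miR-181b or miR-181d, which were not analysed here. The hyperoxia group (3 samples) was kept in 95% oxygen for 7 days and the room air group (3 samples) in ambient air. All mice entered the exposure before 12 hours of age and were sampled at day 7, when the pulmonary artery was flushed with saline and the right lung was frozen. Strain and sex, and whether the samples came from separate animals or litters, are not given in the sources used here, so part of the spread behind each p-value may be technical.

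MicroRNAs are short RNAs that pair through their seed, bases 2 to 8, with messenger RNAs and repress them. A small number of them are made almost entirely by blood-forming cells, which lets them serve in whole tissue as a readout of white cell content and state. In the lung, resident macrophages, circulating and marginated neutrophils, monocytes and lymphocytes are the cells that carry them. miR-142 is shared by nearly all white cells, miR-223 is highest in neutrophils and monocytes, and miR-511 lies within the gene of the macrophage mannose receptor, Mrc1. miR-150 is typical of mature B, T and natural killer cells, and miR-342, from within the gene Evl, is also expressed in lymphocytes. The miR-181 family tunes T cell receptor signalling in the thymus but is made by many other cell types too, among them endothelium and neurons.

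The mature sequences show which of the assayed miRNAs share a seed. RefSeq entries (build GRCm38.p6) were matched for 7 of the 9 distinct miRNAs; miR-150 and miR-511 are named only. Capitals mark the seed.
miR-142-3p: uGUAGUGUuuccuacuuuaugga
miR-142-5p: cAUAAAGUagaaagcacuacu
miR-223: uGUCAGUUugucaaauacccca
miR-342-3p: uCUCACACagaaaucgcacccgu
miR-342-5p: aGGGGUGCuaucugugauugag
miR-181a: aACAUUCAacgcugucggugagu
miR-181c: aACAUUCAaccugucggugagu
miR-181a and miR-181c share the seed ACAUUCA and differ by an edit distance of 1 base, with lengths of 23 and 22 bases. The other 5 sequences each have a seed that no other mouse mature miRNA of the RefSeq table carries. Whether further assays on the cards repeat these seeds was not checked. The seeds of miR-150 and miR-511 were not compared, and both miR-223 wells are named for the same miRNA.

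The hairpin of miR-142 lies at chr11:87756864-87756927 on the plus strand, with no protein-coding gene spanning it in the annotation. Both strands of this hairpin were assayed, which is why it is shown, with the mature 5p and 3p strands in capitals.
Mir142 hairpin: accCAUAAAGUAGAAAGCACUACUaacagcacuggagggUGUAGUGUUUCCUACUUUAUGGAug
The hairpin of miR-223 is at chrX:96242817-96242926 and that of miR-150 at chr7:45121757-45121821, neither within a protein-coding gene. The hairpin of miR-342 (chr12:108658620-108658718) lies within the span of Evl, and that of miR-511 (chr2:14261003-14261081) within the span of Mrc1. Mature miR-181a comes from 2 hairpins, at chr1:137966455-137966541 and chr2:38852735-38852810, whose products 1 assay cannot separate. The hairpin on chr2 lies within the span of Nr6a1, and that on chr1 within no protein-coding gene. miR-181c comes from chr8:84178873-84178961, also outside protein-coding genes.

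Each value is a threshold cycle (Ct), the number of PCR cycles needed to reach a set signal. An early (low) Ct means abundant RNA, and a step of 1 cycle is a fold of 2 if the PCR is fully efficient. A Ct under 35 was reached by 307 to 319 miRNA wells per sample on the first card and by 268 to 293 on the second. The 282 first-card miRNAs detected in every sample had a mean Ct of 23.5, 22.6 and 23.3 in hyperoxia replicates 1, 2 and 3, against 22.0, 22.5 and 22.6 in room air replicates 1, 2 and 3. Relative abundance below is that mean minus the assay's Ct in the same sample and card, on the log2 scale. On the second card, hyperoxia replicate 2 and room air replicate 1 had the same Ct in 308 of 309 wells amplified in both, against 0 of 312 on the first card. Those values were left out of both samples, so hsa-miR-223 rests on 2 samples per group and the other 9 wells on 3. The lung label was checked on marker miRNAs. The endothelial miR-126-3p had a mean Ct of 13.2 in hyperoxia and 11.8 in room air, and all 9 epithelial wells looked up were detected in both groups.

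All 9 first-card wells were detected in all 6 samples. None of the 10 wells passed the threshold of 0.05 on the adjusted p of limma, in either direction, and neither did any of the 551 assays tested (0%). At an unadjusted p under 0.05 stood 1 of the 10 wells, miR-150, against 9.07% of all assays in either direction and 5.44% on the lower side. The 9 first-card wells had a log2 fold change (hyperoxia over room air) above 0 in 5 cases and below 0 in 4, with a median of 0.14. Over all 302 first-card assays tested, 124 (41.1%) were above 0, 178 (58.9%) below, and the median was -0.13. The lymphocyte miR-150 was lower in every hyperoxia sample, miR-342-3p had a negative value with overlapping groups, and miR-223 and miR-142-3p had positive values with overlapping groups. In whole lung, fewer cells of a type and less of the miRNA per cell cannot be told apart.

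**Figure D1:**
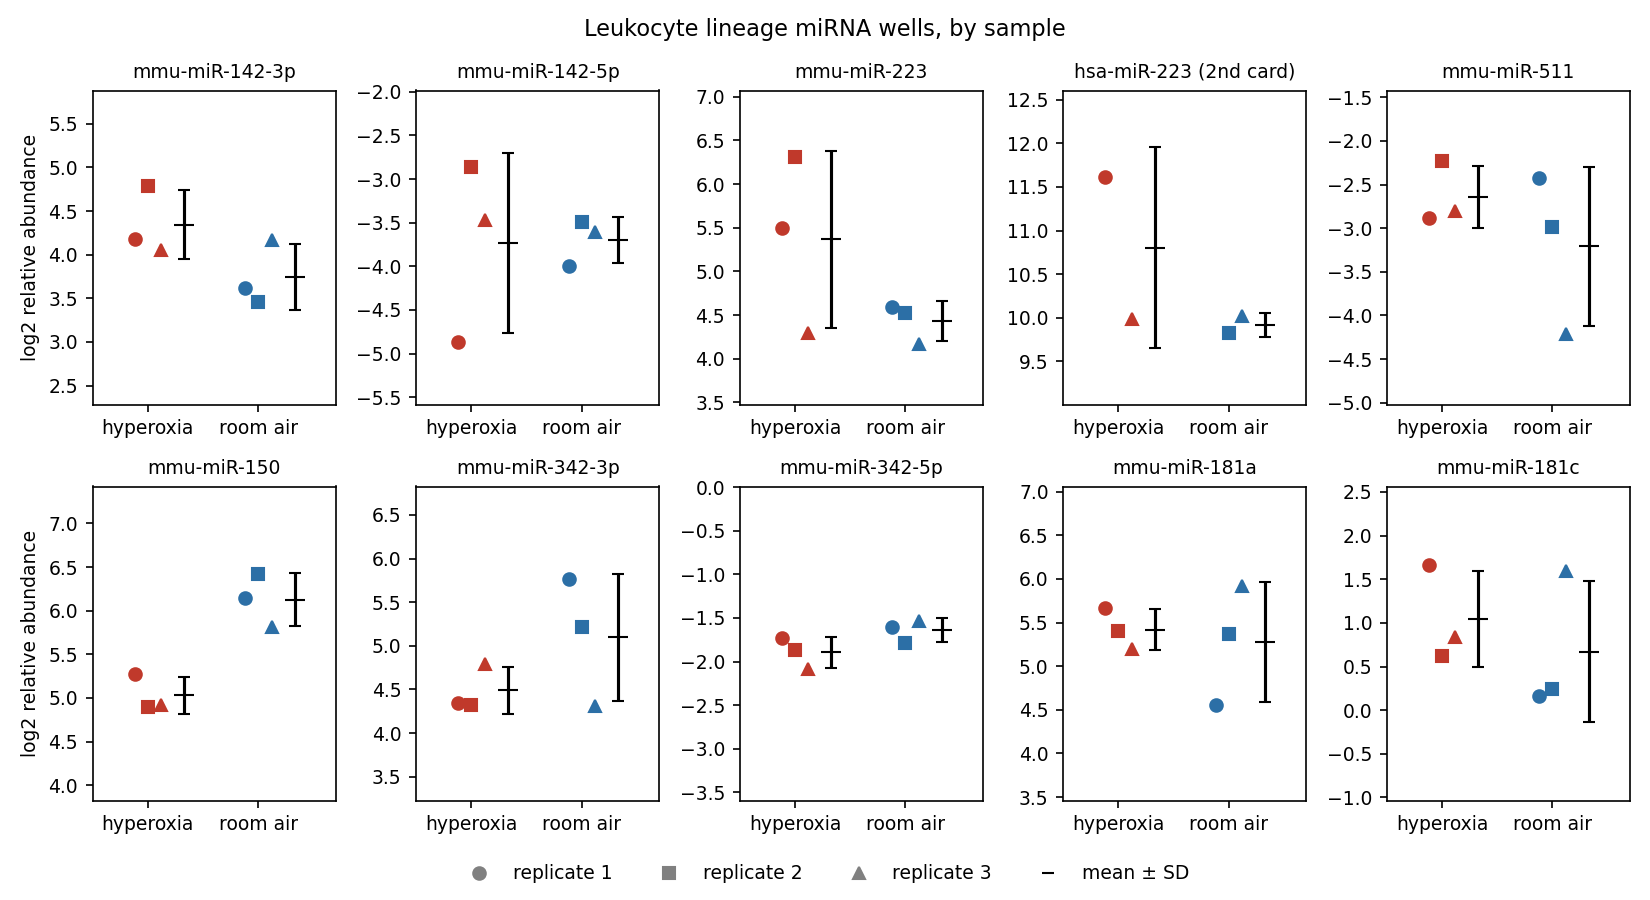
Log2 relative abundance of each leukocyte lineage well (y axis, a different range but the same span in every panel), hyperoxia left and room air right, 1 point per sample with the replicate number as symbol; bars show mean ± SD. miR-150 is the well whose groups do not overlap, with hyperoxia at 4.90 to 5.28 and room air at 5.81 to 6.42.

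miR-150, which restrains the transcription factor Myb in developing lymphocytes, was read at a Ct of 18.2, 17.7 and 18.4 in hyperoxia, against 15.9, 16.1 and 16.8 in room air. Every hyperoxia sample crossed the threshold later than every room air sample. On the relative scale the values were 5.28, 4.90 and 4.92 in hyperoxia and 6.14, 6.42 and 5.81 in room air, again without overlap. The log2 fold change was -1.09 ± 0.27 (SE, n = 3 per group), or 0.469-fold, with an unadjusted limma p of 0.0082 and an adjusted p of 0.333. Leaving out any 1 sample kept it between -1.26 and -0.94. Lower values without overlap were found for 49 of the 302 first-card assays (16.2%), against 1 of the 9 leukocyte wells, a share no larger than the background. Higher values without overlap were found for 6.29% of assays and for 0 leukocyte wells. In room air miR-150 had the 20th lowest mean Ct of the 282 assays, although assays differ in efficiency and a rank of Ct is only a rough rank of abundance.

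miR-342-3p is encoded within Evl, a gene of an actin regulator. It had a Ct of 19.1, 18.3 and 18.5 in hyperoxia and 16.3, 17.3 and 18.3 in room air. All hyperoxia Cts were later than all room air Cts, but by only 0.005 cycles between hyperoxia replicate 2 and room air replicate 3. Later Ct without overlap was seen for 3 of the 9 leukocyte wells (miR-150 and both strands of miR-342) and for 136 of 302 first-card assays (45%). On the relative scale the hyperoxia values of 4.35, 4.32 and 4.79 lay within the room air range of 4.31 to 5.76, whose spread (SD 0.73, n = 3) was wider than in hyperoxia (SD 0.26, n = 3). The log2 fold change was -0.61 ± 0.43 (limma adjusted p = 0.689), with -0.28 without room air replicate 1 and -1.01 without room air replicate 3.

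The other strand of that hairpin, miR-342-5p, was read at a much later Ct, with 25.2, 24.5 and 25.4 in hyperoxia and 23.6, 24.3 and 24.1 in room air. Its relative values were -1.73, -1.86 and -2.08 in hyperoxia, against -1.60, -1.79 and -1.53 in room air. The groups met at hyperoxia replicate 1 and room air replicate 2. Its log2 fold change was -0.25 ± 0.23 (limma adjusted p = 0.754).

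**Figure D2:**
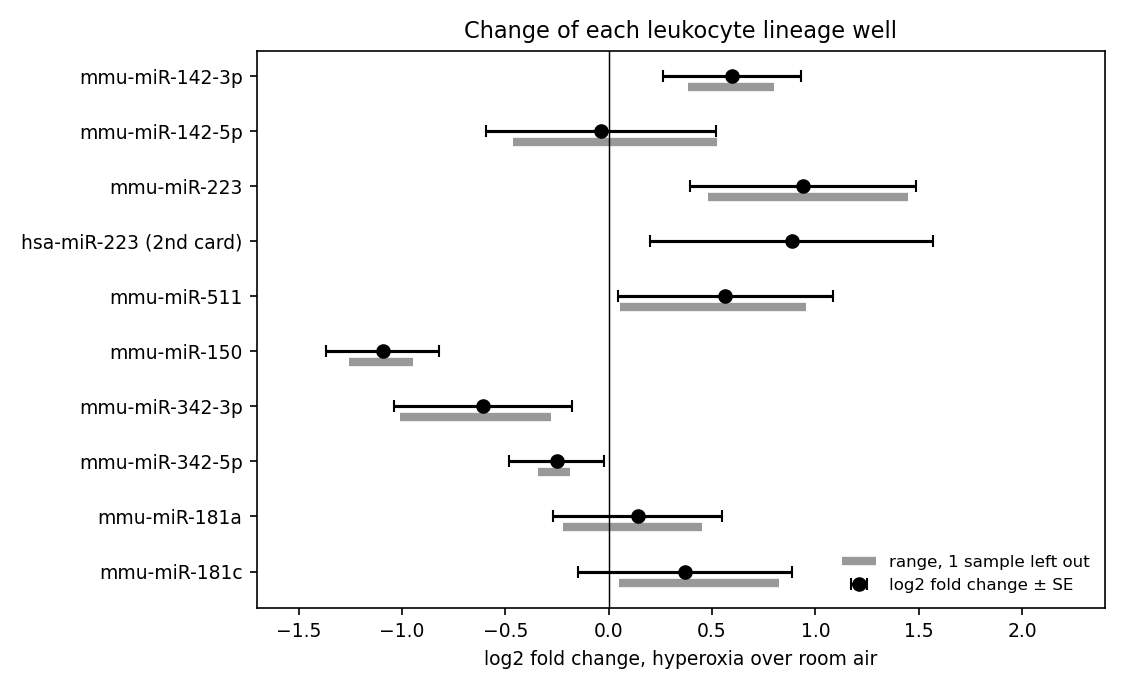
Log2 fold change of hyperoxia over room air for the 10 leukocyte lineage wells (x axis); black points and bars are the limma estimate ± SE and grey bars the range when 1 sample is left out (first card). miR-150 at -1.09 is farthest from 0, and the grey bars of miR-142-5p and miR-181a cross 0.

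miR-223, which limits neutrophil production and activation in mice, had a Ct of 18.0, 16.3 and 19.0 in hyperoxia and 17.4, 18.0 and 18.4 in room air. Hyperoxia held both the earliest and the latest sample. Relative to the other miRNAs it was at 5.50, 6.31 and 4.29 in hyperoxia, against 4.59, 4.53 and 4.16 in room air. Hyperoxia replicates 1 and 2 lay above all room air samples and replicate 3 among them, and the spread was wider in hyperoxia (SD 1.01, n = 3) than in room air (SD 0.23, n = 3). The log2 fold change was 0.94 ± 0.55, or 1.92-fold (limma adjusted p = 0.689). It was 0.48 without hyperoxia replicate 2 and 1.45 without hyperoxia replicate 3, so single samples set its size.

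The second miR-223 assay, hsa-miR-223, had a Ct of 13.6 and 15.3 in hyperoxia replicates 1 and 3, against 15.3 and 15.0 in room air replicates 2 and 3. The shared reading that belongs to an unknown sample was 13.2. Hyperoxia replicate 1 was the early sample and replicate 3 lay with room air. The relative values of 11.62 and 9.99 in hyperoxia and 9.82 and 10.02 in room air gave an estimate of 0.89 ± 0.68 on the log2 scale (limma adjusted p = 0.738, n = 2 per group). It was 0.59 with the shared reading kept in both groups, 1.28 with it in hyperoxia alone and 0.20 with it in room air alone. The order of hyperoxia replicates 1 and 3 was the same in both miR-223 wells, but that of room air replicates 2 and 3 was reversed. Their Cts were 18.0 and 18.4 on the first card and 15.3 and 15.0 on the second. With 2 samples per group, neither order tells whether the wells match. The second-card Ct was 2.68 to 4.38 cycles earlier than the first-card Ct in the 4 samples. Second-card names are uncertain: the assay numbers inside 105 of its names all match the number listed 3 wells later. Names as listed were used, because the 5 control RNAs then differed between cards by a median of 0.72 cycles, against 6.96 when the numbers were followed.

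miR-511, a macrophage and dendritic cell miRNA, had a Ct of 26.4, 24.8 and 26.1 in hyperoxia and 24.5, 25.5 and 26.8 in room air. Its relative values were -2.89, -2.23 and -2.81 in hyperoxia, inside or just above the room air values of -2.43, -2.98 and -4.21. Room air replicate 3 was the low sample. The log2 fold change was 0.57 ± 0.52 (limma adjusted p = 0.754), with 0.054 without that sample and 0.95 without room air replicate 1.

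miR-142-3p, needed for the formation and function of several white cell lineages in mice, had a Ct of 19.3, 17.8 and 19.3 in hyperoxia and 18.4, 19.0 and 18.4 in room air. On the relative scale it stood at 4.18, 4.79 and 4.06 in hyperoxia, against 3.61, 3.46 and 4.17 in room air. The groups overlapped through room air replicate 3, which was above hyperoxia replicate 3. The log2 fold change was 0.60 ± 0.33 (limma adjusted p = 0.68), with 0.38 to 0.80 when 1 sample was left out.

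Its partner strand miR-142-5p crossed the threshold later, at 28.3, 25.5 and 26.8 in hyperoxia and 26.0, 26.0 and 26.2 in room air. Its relative values were -4.87, -2.86 and -3.47 in hyperoxia and -3.99, -3.49 and -3.61 in room air, so the hyperoxia samples spanned the room air samples on both sides. The log2 fold change was -0.036 ± 0.56 (limma adjusted p = 0.985), with 0.53 without hyperoxia replicate 1 and -0.46 without hyperoxia replicate 2. The strands of this hairpin thus had estimates of opposite sign, neither of which passed.

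The miR-181 wells overlapped between groups. miR-181a had a Ct of 17.8, 17.2 and 18.1 in hyperoxia and 17.5, 17.1 and 16.7 in room air, with relative values of 5.66, 5.40 and 5.19 in hyperoxia and 4.55, 5.37 and 5.92 in room air. All 3 hyperoxia values lay inside the room air range. miR-181c had a Ct of 21.8, 22.0 and 22.5 in hyperoxia and 21.9, 22.2 and 21.0 in room air, with relative values of 1.66, 0.62 and 0.83 in hyperoxia and 0.16, 0.25 and 1.60 in room air. Its room air replicate 3 was nearly as high as hyperoxia replicate 1, the highest sample. The log2 fold changes were 0.14 ± 0.41 for miR-181a (limma adjusted p = 0.935) and 0.37 ± 0.52 for miR-181c (limma adjusted p = 0.853). With 1 sample left out, miR-181a ran from -0.22 (without room air replicate 1) to 0.45 and miR-181c from 0.051 (without hyperoxia replicate 1) to 0.83 (without room air replicate 3).

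Taking the difference of 2 Cts in the same sample removes the reference altogether, and shows how the balance between wells shifted. miR-223 over miR-150, as the Ct of miR-150 minus that of miR-223, was 0.22, 1.41 and -0.62 cycles in hyperoxia, against -1.56, -1.89 and -1.65 in room air. Every hyperoxia sample was above every room air sample, by 2.03 cycles on average, with an SD of 1.02 in hyperoxia and 0.17 in room air (n = 3 each). miR-142-3p over miR-150 was -1.10, -0.11 and -0.86 cycles in hyperoxia, against -2.53, -2.96 and -1.64 in room air, also without overlap and 1.69 cycles apart on average. Over all pairs of the 282 assays, 18.3% of 39621 differences did not overlap between groups. miR-150 enters both differences and these pairs were picked with its value known, so they describe the samples and carry no test. Because assays differ in efficiency, only the shift between groups can be read from such a difference, not which miRNA is more abundant.

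The remaining pairs overlapped. miR-342-3p over miR-150 was at -0.93, -0.58 and -0.12 cycles in hyperoxia, against -0.38, -1.20 and -1.50 in room air. Its hyperoxia values lay inside the room air range except for replicate 3. miR-223 over miR-142-3p was at 1.32, 1.52 and 0.24 cycles in hyperoxia and 0.97, 1.07 and -0.006 in room air. In both groups replicate 3 had the lowest value of this balance. The strand difference of miR-142, 3p over 5p, was at 9.05, 7.65 and 7.52 cycles in hyperoxia and 7.61, 6.95 and 7.78 in room air; hyperoxia replicate 1 stood apart through its late 5p reading. The strand difference of miR-342, a pair added after its values were seen, averaged 6.38 ± 0.43 cycles in hyperoxia and 6.74 ± 0.79 in room air (SD, n = 3 each). miR-181a over miR-181c averaged 4.38 ± 0.39 cycles in hyperoxia and 4.61 ± 0.44 in room air (SD, n = 3 each), a difference smaller than the spread.

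**Figure D3:**
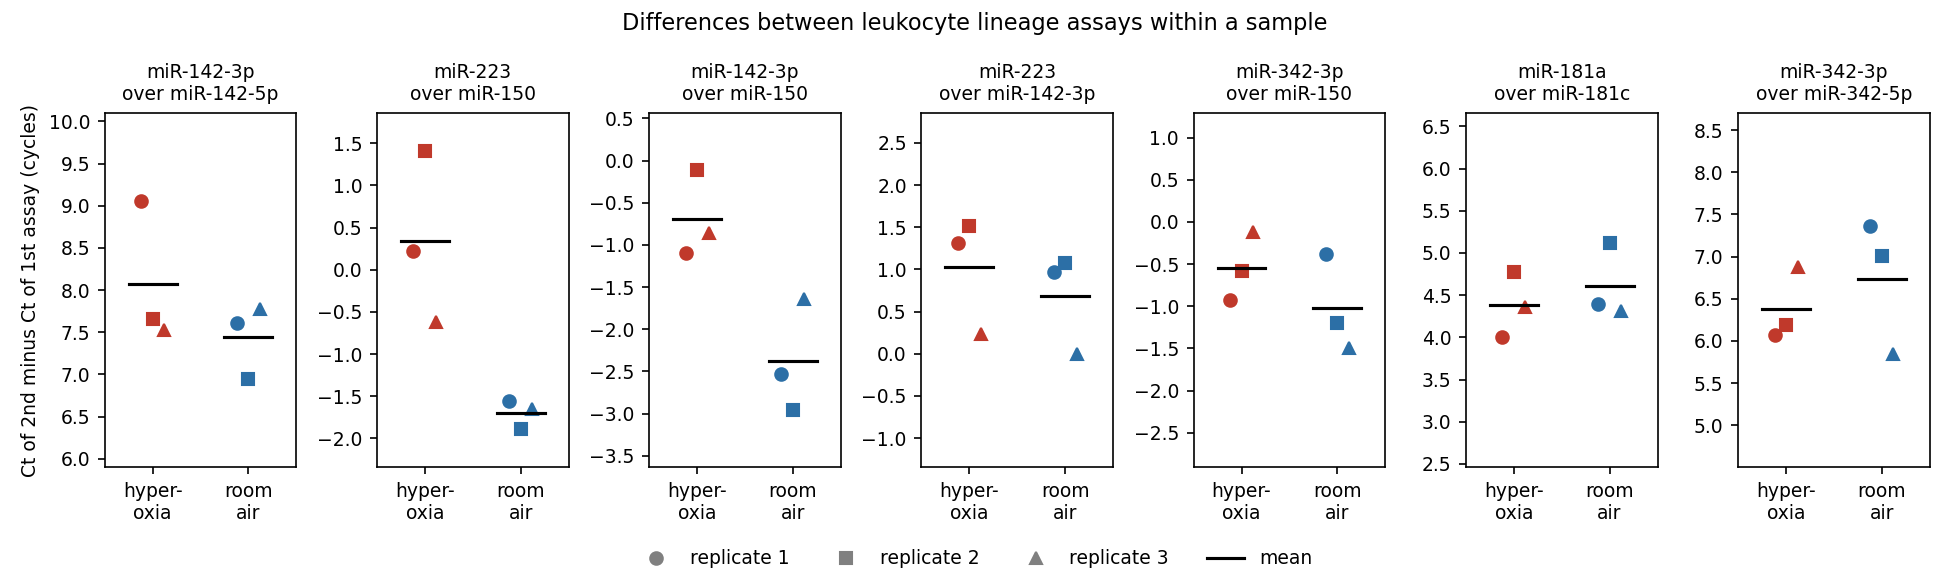
Ct of the second assay minus Ct of the first in each sample, in cycles (y axis, same span in every panel), for 7 pairs of first-card leukocyte lineage wells; hyperoxia left, room air right, lines are means of 3 samples. Only the pairs of miR-223 and miR-142-3p with miR-150 have groups that do not overlap.

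The reference sets where 0 lies, and it decides the sign of several wells. The mean first-card miRNA Ct was 0.76 cycles later in hyperoxia (exact permutation p = 0.1, two-sided, the smallest that 3 against 3 allows). The control RNAs snoRNA135, snoRNA202 and U87 differed by -0.078, 0.038 and -0.13 cycles, while Y1 was 0.41 cycles later and the U6 wells were later by 0.43 (row A) and 1.06 cycles (row B). With the 5 control RNAs as reference the log2 fold change was -1.66 for miR-150, -1.17 for miR-342-3p, 0.38 for miR-223 and 0.033 for miR-142-3p. Without any reference these were -1.85, -1.37, 0.18 and -0.16. miR-150 and both strands of miR-342 stayed below 0 and first-card miR-223 above 0 under every reference tried, and the adjusted p stayed above 0.05 throughout. miR-142-3p, miR-511, miR-181a and miR-181c were above 0 relative to the mean of the miRNAs and below 0 without a reference.

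**Figure D4:**
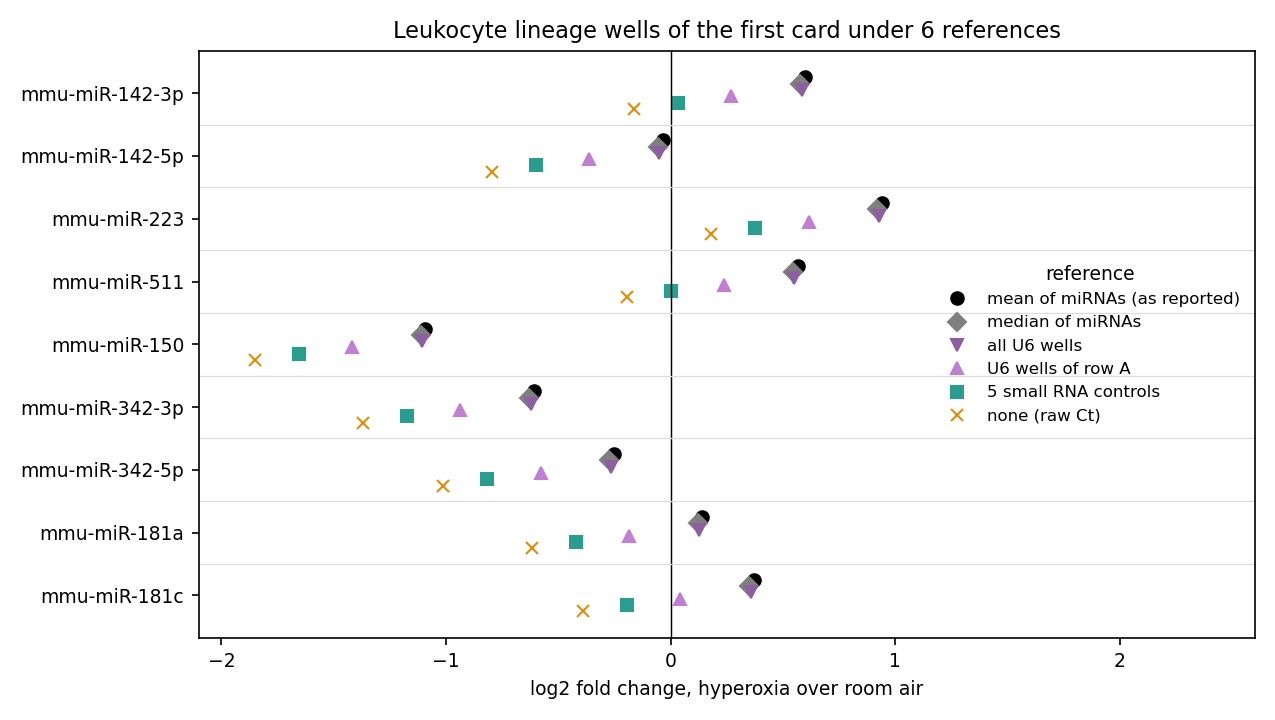
Log2 fold change of hyperoxia over room air (x axis) for the 9 first-card leukocyte lineage wells under 6 references, 1 symbol per reference. All wells move left together from the mean of the miRNAs to raw Ct, and miR-150, miR-342-3p and miR-342-5p lie left of 0 under each reference shown.

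The authors' deposited table gives a fold of hyperoxia over room air relative to U6 in row A of the first card. In the authors' deposited table this fold was 0.374 for miR-150, 0.523 for miR-342-3p, 0.67 for miR-342-5p and 0.778 for miR-142-5p. On the other side, the authors' deposited table lists 1.53 for miR-223, 1.87 for hsa-miR-223, 1.21 for miR-142-3p and 1.18 for miR-511. The miR-181 wells were at 0.88 (miR-181a) and 1.03 (miR-181c) in the authors' deposited table. The hsa-miR-223 fold includes the shared second-card reading in both groups.

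**Figure D5:**
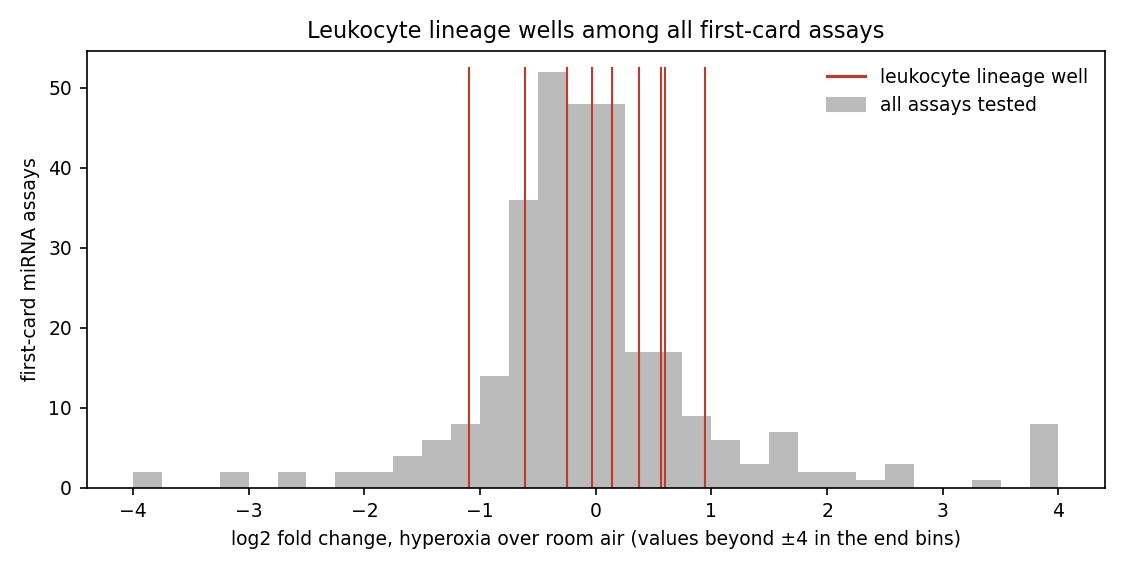
Histogram of the log2 fold change of hyperoxia over room air for the 302 first-card miRNA assays tested (grey), with the 9 leukocyte lineage wells as red lines. The lines run from -1.09 (miR-150) to 0.94 (miR-223), inside the bulk of all assays.

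Profiles over the 6 samples were compared by the root-mean-square difference between relative abundances centred on each assay's mean, against 262 other assays. Nearest to miR-223 were miR-155 (0.21), miR-146b (0.36) and miR-132 (0.40), where the median assay was at 0.94. These 3 are miRNAs induced in activated immune cells, among others. Nearest to miR-150 were miR-93 (0.11), miR-339-3p (0.22) and miR-484 (0.24), with a median of 0.63. Nearest to miR-142-3p were miR-29a (0.24), miR-135a (0.27) and miR-674 (0.32), with a median of 0.66. Among the leukocyte wells themselves, miR-181a and miR-181c were closest (0.36), followed by miR-181a with miR-342-5p (0.44), miR-142-3p with miR-181a (0.45) and miR-150 with miR-342-3p (0.47). miR-150 and miR-223 were the farthest apart (1.18). With 6 samples a small difference is easily found among so many assays, so these are descriptions.

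Other miRNAs of immune cells and of the cells around them were read from lists of marker miRNAs. In the list of miRNAs induced on immune activation, 6 of 7 wells had positive log2 fold changes, against 232 of the 551 assays tested. The median was 0.94 against -0.12 over all assays. This list was chosen with earlier results of these data known, so the shares are descriptions. By limma 0 of 7 passed the adjusted threshold and 3 (miR-147, miR-132 and miR-21) had an unadjusted p under 0.05, against 9.07% of all assays. Which cells of the lung carried the miRNAs of this list was not tested. The 7 wells stand for 6 miRNAs, since 2 of them are named for miR-146b. Their values were 2.66 for miR-147, 1.68 for miR-132, 1.61 for miR-21, 0.94 for miR-155, 0.75 for miR-146b, 0.83 for rno-miR-146B and -0.13 for miR-146a. The mean relative abundance of its 6 first-card wells was 2.72, 3.08 and 2.20 in hyperoxia replicates 1 to 3, against 1.69, 1.60 and 0.96 in room air. Hyperoxia replicate 2, the highest of these, was also the highest sample for miR-223 and miR-142-3p, and replicate 3 the lowest in hyperoxia for all of them.

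Red cell miRNAs were read as a measure of blood left in the lung. Of 3 erythroid wells (miR-451, miR-144 and miR-486) 0 passed limma's adjusted threshold and 1 had an unadjusted p under 0.05. The mean relative abundance of the first-card wells, miR-451 and miR-486, was 3.11, 0.37 and 2.37 in hyperoxia and -0.083, 2.32 and 2.19 in room air. Hyperoxia replicate 2 and room air replicate 1 were the low samples. The third well, hsa-miR-144 on the second card, stood at -1.29 ± 0.32 on the log2 scale (limma adjusted p = 0.446, n = 2 per group) without overlap. It lacks the low samples just named, and second-card names are uncertain. The first-card estimates were 0.71 ± 1.20 for miR-451 and 0.24 ± 0.79 for miR-486 (SE). These values do not show whether the erythroid wells differ in direction. The highest miR-223 value was that of hyperoxia replicate 2, which is 1 sample. Whether miR-150 or miR-223 follows the erythroid wells across samples was not tested. In the endothelial, epithelial, mesenchymal and striated muscle lists 0 of 22 wells passed limma's adjusted threshold and 1 had an unadjusted p under 0.05, with medians of -0.38, -0.12, -0.027 and -0.20. The part of blood content and of other cell types in the leukocyte values was not tested.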

How the data were processed

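The authors deposited 1 table with a Ct per well and sample, non-normalized per the file headers, and a fold (a ratio of hyperoxia over room air). Per the labels' protocols, RNA was reverse transcribed with Megaplex primers, sets A and B, and pre-amplified for 12 cycles; the instrument is not given in the sources used here. Wells at a Ct of 40 did not amplify. Values at a Ct of 35 or later were set missing, each card was centred on its commonly detected miRNAs (282 and 249), and assays with at least 2 values per group were fitted together in limma 3.58.1 under R 4.3.3 (lmFit, eBayes, two-sided; prior degrees of freedom 1.62) with Benjamini-Hochberg adjustment over 551 assays. The fit was tested on simulated first-card data, with a spread equal in every assay and below the median spread of the real assays. That test does not show how the fit performs at the real spread or on the second card. The number of samples limits the precision. Members, lists and pairs were chosen with earlier results of these data known. Named are every member well, the wells of the activation list, and the 3 assays nearest in profile to miR-142-3p, miR-223 and miR-150 (row G left out). Plate row G stayed in the reference mean and in the shares over all assays. Leaving it out of the limma fit gave 0 higher and 0 lower calls over 514 assays. References, Ct ceilings, filters, the shared values, the variance model, a replicate block and left-out samples were varied.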

Additional observations from a re-analysis of the deposited data

How the results depend on the processing

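Over 24 alternatives (18 for hsa-miR-223, which could not be tested in 6 of them), 222 of 234 values of the leukocyte wells kept their direction, 12 changed sign, and 0 passed the adjusted threshold. Many of these values could not move. The first-card log2 fold changes are fixed when only the second card, the other assays tested, the variance model or the replicate block changes. The hsa-miR-223 fit never used hyperoxia replicate 2 or room air replicate 1, so leaving either out kept its value. The count of kept directions therefore overstates how far the estimates were tested. With the control RNAs as reference miR-181a was at -0.42 and miR-181c at -0.19, and with U6 of row A miR-181a was at -0.19. Without normalization miR-142-3p was at -0.16, miR-181a at -0.62, miR-181c at -0.39 and miR-511 at -0.20. With quantile normalization hsa-miR-223 was at -0.51. With 1 sample left out miR-142-5p ran from -0.46 to 0.53 and miR-181a from -0.22 to 0.45. A change of reference moved every first-card well by the same amount. The cause of the sign changes with quantile normalization or with 1 sample left out was not tested. Over all assays 1 higher assay passed with quantile normalization, with a Ct ceiling of 32, with the first card alone and with a trended robust variance; 4 higher and 4 lower passed when wells at a Ct of 40 entered as measured. With 1 sample left out the higher count ran from 0 to 1. None of these is a leukocyte well. The labels state no pairing by replicate number. Same-numbered samples deviated from their group means with correlations of -0.34, -0.23 and -0.18, against -0.25 to 0.36 for different-numbered samples. Deviations from a mean of 3 samples constrain each other, so these correlations cannot settle whether samples were paired. A replicate block, which could be fitted on first-card assays only, gave 0 calls, with miR-150 at -1.09 (limma adjusted p = 0.481). Over all alternatives the adjusted p of miR-150 ran from 0.112 to 0.655 and that of first-card miR-223 from 0.232 to 0.911. With 3 samples per group, or 2 on the second card, differences of the size seen for most wells could not be told from the spread.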

Other observations

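Minor-strand assays of these hairpins were left out of the comparisons. mmu-miR-150# on the second card had a Ct of 30.9 in hyperoxia replicate 1 and no amplification (Ct 40) in hyperoxia replicate 3, against 32.6 and 32.5 in room air replicates 2 and 3, while the shared reading was 33.3. mmu-miR-181A-2# amplified in room air replicate 3 alone, at a Ct of 27.4.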
